A study of Mus musculus with 12 samples.

Results

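The 10 RNAs described here are nuclear or retina-expressed long noncoding RNAs, which are transcripts that work as RNA and are not translated. They are Malat1, Neat1, Meg3, Miat, Snhg11, Tug1, Kcnq1ot1, Six3os1, Vax2os and Rmst. They were taken by name, as the rows of the gene count table whose Ensembl identifier carries these symbols, and all 10 of 10 were found among 53707 rows. The table holds 9898 genes annotated as long noncoding RNA; 9 of the 10 are among them, and Snhg11 is listed as protein-coding in the annotation used (GENCODE M21, genome build GRCm38). RNA was measured in retinal explants, whole retinas kept alive in culture medium, from wild-type C57BL/6J mice at 28 days of age. The retinas were freed of sclera and pigment epithelium and kept for 48 hours in Neurobasal-A medium with B27 and N2 supplements and either 5 mM or 25 mM glucose. Each concentration had 3 biological replicates, and each of these had 2 technical replicates, the first in batch 1 and the second in batch 2, which made 12 libraries. The sources used here do not say whether a technical replicate was prepared from the same RNA, and how many mice made a replicate is not given either, so the p-values measure the spread between these samples only. Libraries were made from total RNA with a stranded kit for low inputs, and the deposited values are estimated read counts, with 14815285 to 36692484 per library.

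Malat1 is a nuclear RNA that gathers in nuclear speckles, bodies rich in splicing factors, and Neat1 is the RNA on which paraspeckles are built, bodies that hold RNA-binding proteins in the nucleus. Meg3 and Kcnq1ot1 are imprinted RNAs, made from only the maternal or only the paternal chromosome, and lie in clusters of imprinted genes. Miat (also called Gomafu) is a nuclear RNA of neurons that binds a splicing factor through a short repeat, Tug1 was first described in retinal cells treated with taurine, Six3os1 and Vax2os run opposite to the eye homeobox genes Six3 and Vax2, Snhg11 hosts small nucleolar RNAs in its introns, and Rmst is an RNA of neural progenitors.

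Malat1 and Neat1 are neighbours on chromosome 19 and carry alike 3′ ends, which are shown because total RNA libraries also read transcripts with no poly(A) tail. The mature ends are cut by RNase P and held by a triple helix of U-rich and A-rich tracts. In the lines that follow, capitals mark the pair of U-rich tracts and the A-rich tract of Malat1-201 (chr19:5795982-5796085, minus strand) and of the long Neat1-201 (chr19:5824708-5824811, minus strand), and in the short Neat1-202 (chr19:5842307-5842366, minus strand) the polyadenylation signal. Sequences are from the GENCODE M21 transcripts of GRCm38, written 5′ to 3′ with T for U.
Malat1-201: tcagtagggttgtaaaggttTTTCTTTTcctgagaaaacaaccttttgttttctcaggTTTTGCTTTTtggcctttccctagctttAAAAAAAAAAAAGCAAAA
Neat1-201: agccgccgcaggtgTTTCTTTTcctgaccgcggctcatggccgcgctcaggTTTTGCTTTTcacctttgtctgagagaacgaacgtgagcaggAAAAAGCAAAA
Neat1-202: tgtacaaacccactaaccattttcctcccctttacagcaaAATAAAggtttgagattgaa
The tracts searched, on the transcript strand only and in this order, were TTTCTTTT, the letters GC between runs of 4 T, and the letters GC between runs of 4 A, with at most 60 bases between neighbours. Of 30258 annotated long noncoding transcripts, 2 held them, Malat1-201 and Neat1-201. Neat1-201 ends at its A-rich tract, whereas the annotated Malat1-201 runs 292 bases further.

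Miat is marked by the repeat ACTAAC, which is shown because it is the feature that sets this RNA apart from the other 9. Capitals mark each copy in the pair of 130-base stretches with most copies, the first at chr5:112217340-112217469 and the second at chr5:112216758-112216887, both on the minus strand.
Miat-201, first stretch: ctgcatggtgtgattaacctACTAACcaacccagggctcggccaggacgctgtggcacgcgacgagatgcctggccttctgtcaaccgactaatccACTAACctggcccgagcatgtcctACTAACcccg
Miat-201, second stretch: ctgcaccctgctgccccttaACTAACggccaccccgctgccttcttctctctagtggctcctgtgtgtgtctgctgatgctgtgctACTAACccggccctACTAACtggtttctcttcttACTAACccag
Miat-201 held 11 copies in 8758 bases, or 1.26 per kilobase. The strongest transcripts of the other members held 0 to 0.357 copies per kilobase, although the 93092 bases of Kcnq1ot1-201 held 20 copies in all. Of 9539 annotated long noncoding transcripts of at least 1000 bases, 24.0% held a copy and 43 (0.451%) held as many per kilobase as Miat-201 or more.

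To compare levels between genes, transcript counts were divided by transcript length and scaled to the same total in each replicate (TPM, a level per length). Malat1 stood highest, with 2326 ± 140 TPM (SD, n = 3) at 5 mM and 4465 ± 495 TPM (SD, n = 3) at 25 mM glucose, rank 19 of 48976 genes and rank 1 of 9917 long noncoding RNAs. Neat1 followed with 318 ± 40.6 TPM and 178 ± 56.9 TPM, and then Meg3, Tug1 and Snhg11 with means between 62.4 and 154 TPM. Vax2os, Six3os1 and Rmst had means between 16.1 and 31.8 TPM, and Miat and Kcnq1ot1 between 1.51 and 4.90 TPM. The ranges over the 6 replicates did not overlap between Malat1 and Neat1, between Snhg11 and Vax2os, or between Rmst and Miat, whereas the other neighbours in this order overlapped. Short transcripts weigh much on this scale: Malat1-201, 6983 bases long, carried 49.9% of the TPM of Malat1 and Rmst-210 carried 5.45% of that of Rmst. Malat1-201 alone stood at 1250 ± 156 TPM and 2045 ± 170 TPM.

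The first question was whether raising glucose from 5 mM to 25 mM changed these RNAs. No member passed the test. Malat1, Kcnq1ot1 and Vax2os were higher and Neat1 was lower in each 25 mM replicate than in any 5 mM replicate, with fold differences of 1.92, 1.79, 1.83 and 0.518. Miat had the largest fold, 2.53, with overlapping replicates, and Meg3, Six3os1, Rmst, Tug1 and Snhg11 also overlapped. Levels in this and the following comparisons are CPM, counts scaled to library size with TMM factors, after the technical replicates were summed. At a false discovery rate (FDR) under 0.05, 0 of 10 members were called by the edgeR quasi-likelihood test, against 417 of 21061 genes tested (1.98%), 309 higher (1.47%) and 108 lower (0.513%). At the stricter limits of an FDR under 0.01 and a fold over 2 it called 0 of the 10 and 0 of all genes (0%). At an unadjusted p under 0.05 there were 5 of 10 members, 4 higher and 1 lower, where 28.7% of all genes had such a p, 13.2% higher and 15.5% lower. The replicates did not overlap in 4 of 10 members, 3 higher and 1 lower, and in 31.8% of all genes, 16% higher and 15.8% lower, so that this count is close to that of all genes. By limma-voom 0 of 10 members and 418 of 21061 genes had an FDR under 0.05. By DESeq2 5 of 10 members and 3489 of 21061 genes did.

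**Figure D1:**
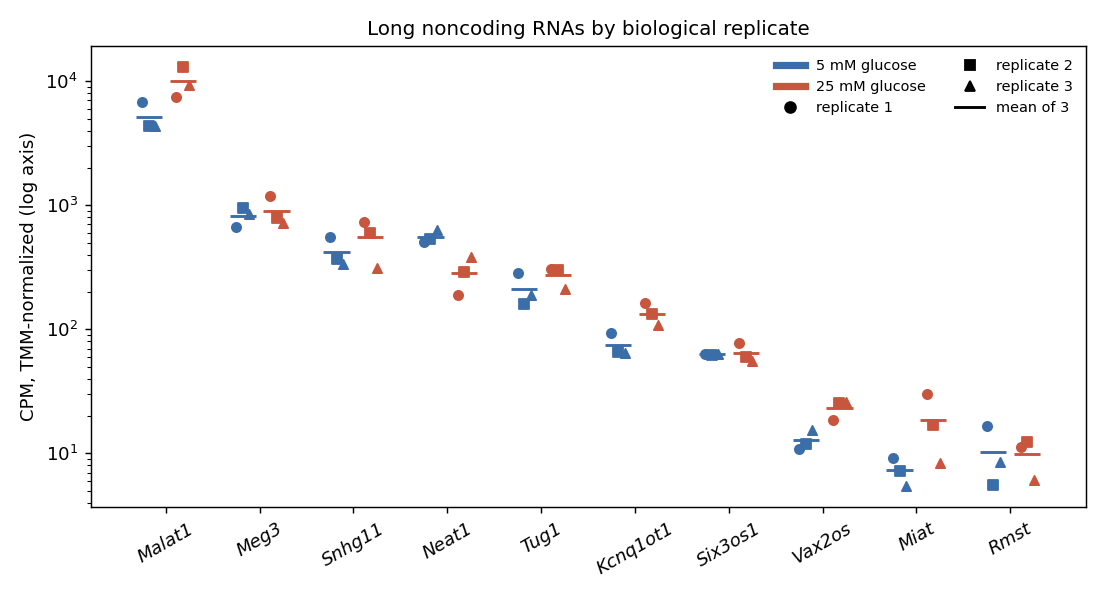
CPM with TMM factors (log axis) of the 10 RNAs in each biological replicate, 5 mM glucose in blue and 25 mM in red, with a bar at the mean of 3 replicates. Malat1 lies at 4341 CPM or above in every replicate, and in Malat1, Neat1, Kcnq1ot1 and Vax2os the points of the 2 concentrations do not overlap.

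Malat1 (ENSMUSG00000092341, chromosome 19, 5795690 to 5802672, minus strand) held 6859, 4363 and 4341 CPM in 5 mM replicates 1 to 3 and 7511, 13043 and 9300 CPM in 25 mM replicates 1 to 3. The highest 5 mM value, in replicate 1, lay close to the lowest 25 mM value. The log2 fold change was 0.94 ± 0.32 (SE, edgeR quasi-likelihood test FDR 0.106). Without 5 mM replicate 1 it was 1.19 (FDR 0.0186, edgeR), and without each of the other replicates between 0.71 and 1.12 with an FDR between 0.123 and 0.308 (edgeR). Malat1 alone took 0.431% to 0.632% of all counts at 5 mM and 0.793% to 1.26% at 25 mM.

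Kcnq1ot1 (ENSMUSG00000101609, chromosome 7, 143203458 to 143296549, minus strand) is a single-exon RNA that keeps neighbouring imprinted genes silent on the paternal chromosome. It held 94.1, 65.9 and 64.2 CPM at 5 mM and 162, 132 and 107 CPM at 25 mM glucose. All 3 values at 25 mM lay above those at 5 mM, with a log2 fold change of 0.84 ± 0.22 (SE, edgeR FDR 0.0732). Vax2os (ENSMUSG00000085794, chromosome 6, 83692806 to 83712201, minus strand) held 10.9, 11.9 and 15.5 CPM at 5 mM and 18.7, 25.4 and 25.9 CPM at 25 mM. Here too the groups were apart, by a log2 fold change of 0.87 ± 0.23 (SE, edgeR FDR 0.0739). Without 5 mM replicate 1 the FDR was 0.0144 for Kcnq1ot1 and 0.0449 for Vax2os (edgeR), in a fit that called 5845 of 21945 genes. Without each of the other replicates it lay between 0.0589 and 0.241 for Kcnq1ot1 (edgeR). For Vax2os it then lay between 0.118 and 0.240 (edgeR).

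Neat1 (ENSMUSG00000092274, chromosome 19, 5824708 to 5845478, minus strand) was the member with lower values at 25 mM glucose. It held 502, 532 and 627 CPM at 5 mM and 189, 289 and 382 CPM at 25 mM. Every 25 mM replicate was below every 5 mM replicate, with a log2 fold change of -0.95 ± 0.26 (SE, edgeR FDR 0.0767). Without 5 mM replicate 1 the FDR was 0.0310, and without each of the other replicates between 0.0524 and 0.232 (edgeR). Within a replicate the ratio of Malat1 to Neat1 CPM was 13.7, 8.20 and 6.93 at 5 mM and 39.8, 45.2 and 24.4 at 25 mM (two-sided exact permutation p = 0.1, the lowest possible with 3 against 3). This ratio was formed after the values of both genes were seen.

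Miat (ENSMUSG00000097767, chromosome 5, 112213228 to 112229395, minus strand), the RNA with the ACTAAC copies shown above, held 9.27, 7.24 and 5.45 CPM at 5 mM and 30.2, 17.1 and 8.37 CPM at 25 mM glucose. The lowest 25 mM value lay under the highest 5 mM value. The log2 fold change was 1.34 ± 0.45 (SE, edgeR FDR 0.105), and without 25 mM replicate 1 it was 0.80 (FDR 0.308, edgeR).

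The other 5 members gave smaller differences. Tug1 (ENSMUSG00000056579, chromosome 11, 3639785 to 3649673, minus strand) held 284, 161 and 188 CPM at 5 mM and 305, 300 and 211 CPM at 25 mM glucose, with a log2 fold change of 0.37 ± 0.25 (SE, edgeR FDR 0.357). Snhg11 (ENSMUSG00000044349, chromosome 2, 158375638 to 158386145, plus strand) held 556, 372 and 339 CPM at 5 mM and 738, 603 and 310 CPM at 25 mM, with a log2 fold change of 0.38 ± 0.33 (SE, edgeR FDR 0.463). In both genes the 5 mM range and the 25 mM range shared values. Meg3 (ENSMUSG00000021268, chromosome 12, 109541001 to 109571726, plus strand) held 674, 950 and 850.0 CPM at 5 mM and 1177, 793 and 720 CPM at 25 mM, so that the first replicate was the lowest at 5 mM and the highest at 25 mM. Its log2 fold change was 0.12 ± 0.25 (SE, edgeR FDR 0.765).

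Six3os1 (ENSMUSG00000093460, chromosome 17, 85600651 to 85618398, minus strand) held 63.5, 62.6 and 63.3 CPM at 5 mM and 77.1, 60.05 and 55.3 CPM at 25 mM. It was the steadiest of the members at 5 mM only with technical replicates summed. There its first and second technical replicates held 50.5 and 79.3, 71.9 and 49.7, and 48.0 and 76.7 CPM. Its log2 fold change was 0.02 ± 0.17 (SE, edgeR FDR 0.945). Rmst (ENSMUSG00000112117, chromosome 10, 92071037 to 92165170, minus strand) held 16.6, 5.52 and 8.51 CPM at 5 mM and 11.2, 12.3 and 6.10 CPM at 25 mM. The 3 values at 25 mM lay within the range at 5 mM, with a log2 fold change of -0.05 ± 0.44 (SE, edgeR FDR 0.954).

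The members were then set beside all annotated long noncoding RNAs tested. These include the members themselves except Snhg11, which the annotation places among the protein-coding genes. Of the 3183 annotated long noncoding RNAs tested, 77 were higher at an FDR under 0.05 (2.42%) and 3 were lower (0.0943%) at 25 mM glucose (edgeR). These counts were 0 and 0 in batch 2 alone and when replicate 2 or 3 at 5 mM, or replicate 1 or 2 at 25 mM, was left out, whereas they were 594 and 70 without 5 mM replicate 1 (edgeR) and 462 and 43 with DESeq2. At an unadjusted p under 0.05 the shares were 27% higher and 3.08% lower, and the groups did not overlap in 38%. The median log2 fold change was 0.49 over these RNAs, -0.12 over 16068 protein-coding genes and -0.01 over all genes tested. The members, with a median of 0.37 and 8 of 10 above 0, sat between the long noncoding RNAs and all genes, and Neat1 lay on the less populated side of its class. A log2 fold change above 0 was seen in 77.5% of the long noncoding RNAs and in 41.6% of the protein-coding genes.

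The offset was present at each level of expression. At means of 10 to 100 CPM, the range of Six3os1, Vax2os, Miat and Rmst, the median was 0.44 for 208 long noncoding RNAs and -0.14 for 7848 protein-coding genes. At 100 CPM or more, the range of Malat1, Meg3, Neat1, Snhg11, Tug1 and Kcnq1ot1, it was 0.30 for 25 long noncoding RNAs and -0.02 for 2340 protein-coding genes. In batch 1 alone the median of the long noncoding RNAs was 0.71 and in batch 2 alone 0.36.

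**Figure D2:**
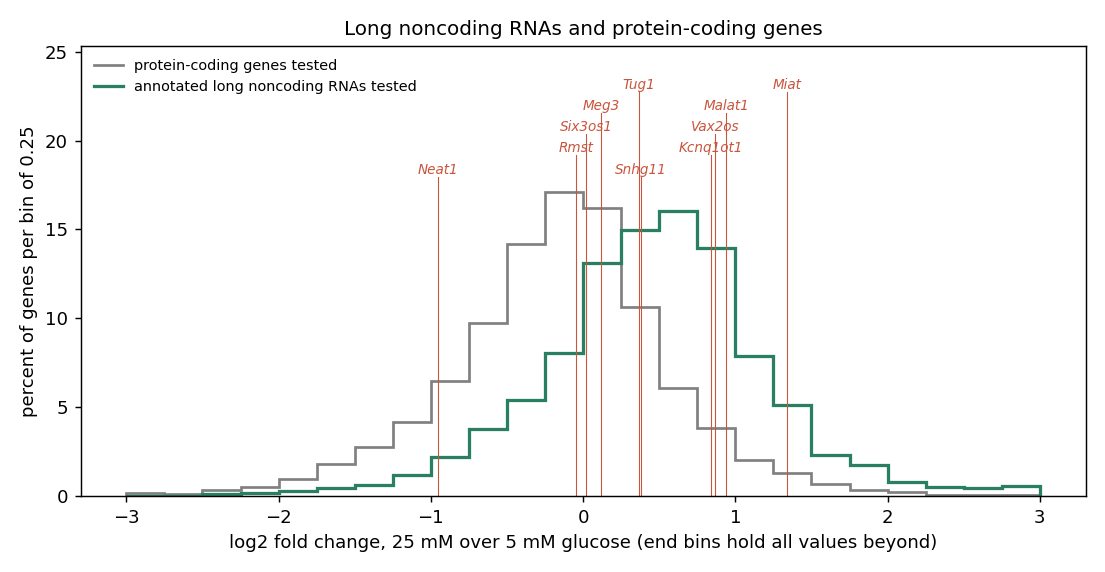
Distribution of the log2 fold change at 25 mM over 5 mM glucose (edgeR) in bins of 0.25, as percent of genes, for protein-coding genes (grey) and annotated long noncoding RNAs (green), with the 10 RNAs as red lines. The long noncoding RNAs have a median of 0.49 and the protein-coding genes of -0.12, and Neat1 stands at -0.95.

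Explants are mixed tissue, and fewer cells of a type and less RNA per cell cannot be told apart in these libraries. Marker levels of several cell types differed between the concentrations. Summed over 13 rod markers, the level was 3316 to 5964 CPM at 5 mM and 7315 to 9630 CPM at 25 mM, and 6 of the 13 rose at an FDR under 0.05 (edgeR), among them Pde6b, a subunit of the rod phosphodiesterase, with a log2 fold change of 1.65 (FDR 0.0217, edgeR). At 25 mM the first and second technical replicates of the rod sum held 6732 and 13110, 11673 and 5005, and 7689 and 9036 CPM. The highest single library at 5 mM held 6128 CPM, so single libraries overlapped. The 10 vascular markers summed to 1207 to 2044 CPM at 5 mM and 615 to 1093 CPM at 25 mM, and the 10 microglia markers to 365 to 514 CPM and 144 to 304 CPM. In these lists 0 genes had an FDR under 0.05 (edgeR), with 8 of 10 vascular and 7 of 10 microglia markers lower at an unadjusted p under 0.05. Single libraries of the vascular sum and of the microglia sum overlapped between the concentrations. The 10 Mueller glia markers did not share a direction: 0 passed (edgeR), 3 were higher and 2 lower at an unadjusted p under 0.05, and the median log2 fold change was 0.15. Their sum of 3266 to 4338 CPM at 5 mM and 2205 to 3075 CPM at 25 mM held Vim, an intermediate filament gene that other cells also use, with means of 1892 and 663 CPM. The 8 pigment epithelium markers summed to 3.88 to 4.72 CPM and 1.61 to 3.07 CPM. None of the markers of rods, cones, vessels, microglia or Mueller glia was at 0 in any library. The part of these cell types in the levels of the 10 RNAs was not tested.

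The second question was how far the technical replicates of a biological replicate differed. Levels of single libraries are CPM with TMM factors set over the 12 libraries. At an FDR under 0.05, 0 of the 10 members differed between the second and the first technical replicates, as did 0 of 18725 genes (0%), and at an unadjusted p under 0.05 there were 0 of 10 members and 1.44% of genes (edgeR quasi-likelihood test with the biological replicate as a block). limma-voom called 0 members as well. The difference had no common sign: the second replicate was the higher in 1 to 4 of the 6 pairs, and the exact sign-flip permutation p lay between 0.188 and 0.875 (two-sided, where 6 pairs allow 0.0313 at the least).

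The size of the difference, without regard to sign, set the members apart from each other. The mean absolute log2 difference was 0.28 for Tug1, 0.29 for Malat1 and 0.38 for Kcnq1ot1, all under the median over genes of 0.46. It was 1.29 for Snhg11 and 1.61 for Miat, larger than in 96.6% and 98.6% of genes. Miat held 2.36 and 18.5 CPM in the first and second technical replicates of 5 mM replicate 1, 9.09 and 4.70 CPM in replicate 2, and 6.05 and 4.83 CPM in replicate 3. At 25 mM glucose the pairs were 50.2 and 11.1 CPM, 29.0 and 10.6 CPM, and 13.7 and 3.64 CPM. The second replicate was thus the lower in all 3 pairs at 25 mM and the higher in 1 of 3 at 5 mM. The estimated counts of Miat in a library were 77.1 to 1073, against 81082 to 277516 for Malat1.

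**Figure D3:**
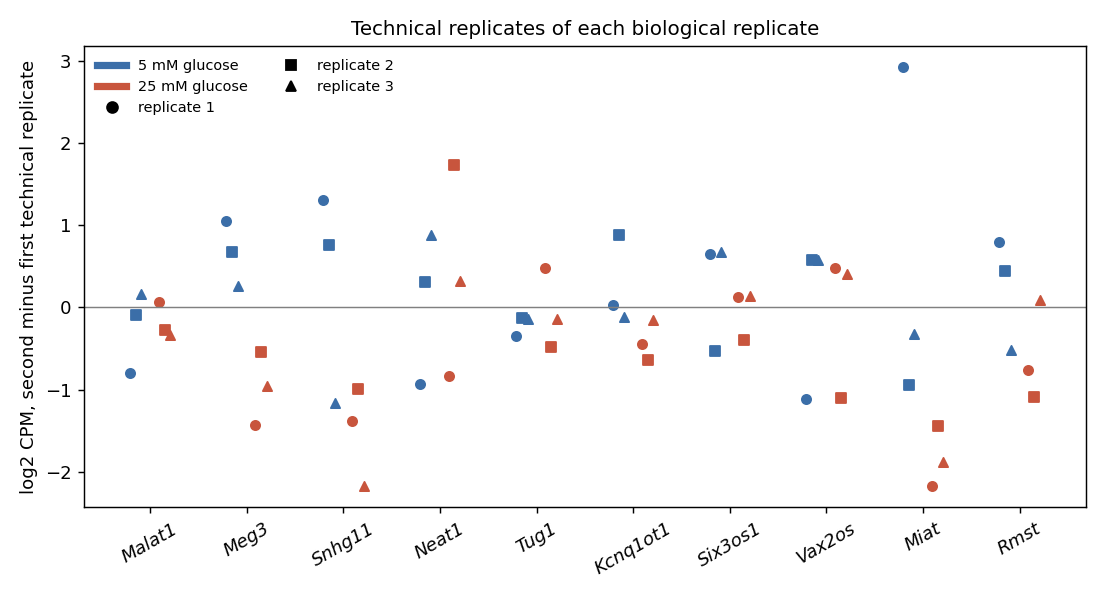
Difference in log2 CPM between the second and the first technical replicate of each biological replicate, 5 mM glucose in blue and 25 mM in red. The points of Tug1 and Malat1 lie between -0.80 and 0.48, those of Miat between -2.17 and 2.93, and Meg3 has all 3 blue points above 0 and all 3 red points below 0.

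The third question was whether the glucose difference was alike in both batches. Malat1 had a log2 fold change of 0.94 in batch 1 and 1.08 in batch 2, Neat1 of -1.15 and -0.83, Vax2os of 1.07 and 0.83, Kcnq1ot1 of 1.18 and 0.53, and Tug1 of 0.32 and 0.53, so that these 5 kept their sign. Meg3 had 0.89 and -0.74, Snhg11 1.17 and -0.66, Miat 2.39 and -0.18, Rmst 0.50 and -0.59, and Six3os1 0.20 and -0.09. At an FDR under 0.05, 0 of the 10 members and 0 of 18725 genes (0%) had a glucose difference that differed between the batches, and 3 of 10 members and 16.3% of genes had an unadjusted p under 0.05 (edgeR quasi-likelihood test, interaction term). limma-voom called 0 members. The 3 members were Meg3, Snhg11 and Miat, with differences between batches of -1.64, -1.84 and -2.31 on the log2 scale and an FDR of 0.173, 0.242 and 0.288 (edgeR).

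Meg3 shows the pattern in every pair. Its first and second technical replicates held 458 and 949 CPM, 750.0 and 1197 CPM, and 766 and 918 CPM at 5 mM glucose. At 25 mM they held 1747 and 650.0 CPM, 1012 and 693 CPM, and 965 and 498 CPM. The second replicate was the higher in 3 of 3 pairs at 5 mM and the lower in 3 of 3 at 25 mM, an order that 1050 of 18725 genes (5.61%) shared, while 5.16% had the opposite order. The summed bipolar markers had the same order, with log2 differences of 0.64, 0.85 and 1.01 at 5 mM and -0.13, -0.11 and -0.20 at 25 mM, and the summed vascular markers the opposite order, with -1.10, -1.12 and -0.46 and 0.28, 1.11 and 0.68. Their part in the level of Meg3 was not tested.

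**Figure D4:**
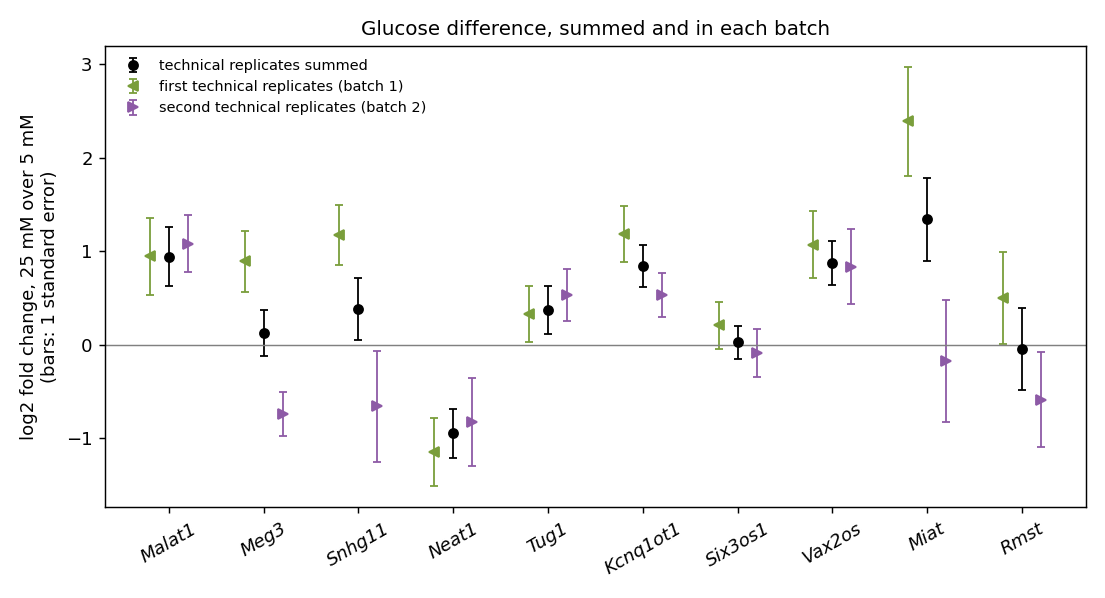
Log2 fold change at 25 mM over 5 mM glucose with 1 standard error (edgeR), for summed technical replicates (black), first technical replicates (green, batch 1) and second technical replicates (purple, batch 2). Malat1, Neat1, Tug1, Kcnq1ot1 and Vax2os keep their sign in both batches, and Meg3 goes from 0.89 in batch 1 to -0.74 in batch 2.

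The transcripts of the members were examined next, with the reservation that estimated counts of overlapping transcripts are uncertain. Of 69 listed transcripts 42 were tested, and 0 had an FDR under 0.05 (edgeR, lowest FDR 0.192), as did 0 of 64990 transcripts in the table (0%). At an unadjusted p under 0.05 there were 10 of 42, against 16.4% of all transcripts. DESeq2 called 6 of the members' transcripts at an FDR under 0.05, and 4820 of all 64990. The short, polyadenylated Neat1-202 carried 88.9% ± 3.71 of the Neat1 counts at 5 mM and 87.9% ± 1.14 at 25 mM (SD, n = 3), and the long Neat1-201, which paraspeckles need, carried 10.0% ± 2.88 and 11.5% ± 0.922. Since Neat1-201 contains the exons of the short form, reads from the shared part can be divided between them only by estimate. The log2 fold change was -0.97 ± 0.28 (SE, edgeR FDR 0.225) for Neat1-202 and -0.76 ± 0.36 (SE, edgeR FDR 0.348) for Neat1-201.

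Malat1-201 carried 92.6% ± 1.64 of the Malat1 counts at 5 mM and 90.4% ± 1.16 at 25 mM (SD, n = 3). The spliced Malat1-204, of 656 bases, carried 6.13%, 5.69% and 6.19% at 5 mM and 7.45%, 7.33% and 7.95% at 25 mM, which was higher in each 25 mM replicate (log2 fold change of its counts 0.92 ± 0.18, SE, edgeR FDR 0.198). It was singled out after its values were seen. Its splice junction, which removes 603 bases inside Malat1-201, is shown because the junction is what tells this transcript from Malat1-201. Capitals mark 5 bases on each side of it, and the transcript spans chr19:5795694-5796952 on the minus strand.
Malat1-204: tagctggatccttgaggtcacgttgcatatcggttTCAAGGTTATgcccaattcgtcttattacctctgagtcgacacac
The 603 bases removed contain the A-rich end shown above for Malat1-201.

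Of the 9 members with more than 1 transcript, 0 had a share of the strongest transcript that did not overlap between 5 mM and 25 mM (two-sided exact permutation p of 0.3 to 0.9, with 0.1 the lowest possible, and 0.9 after adjustment over the 9). Meg3-209, Miat-201 and Snhg11-201 carried over 90% of their gene's counts in every library, with lowest shares of 92.3%, 92.2% and 92.7%. Tug1-202, Six3os1-212, Vax2os-201 and Rmst-210 carried 17.1% to 46.6%, 31.9% to 63.3%, 33.4% to 67.9% and 3.63% to 41.8% over the 12 libraries. In Vax2os the log2 fold change was 0.71 ± 0.27 (SE) for Vax2os-201 and 1.36 ± 0.35 (SE, edgeR FDR 0.218) for Vax2os-203.

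**Figure D5:**
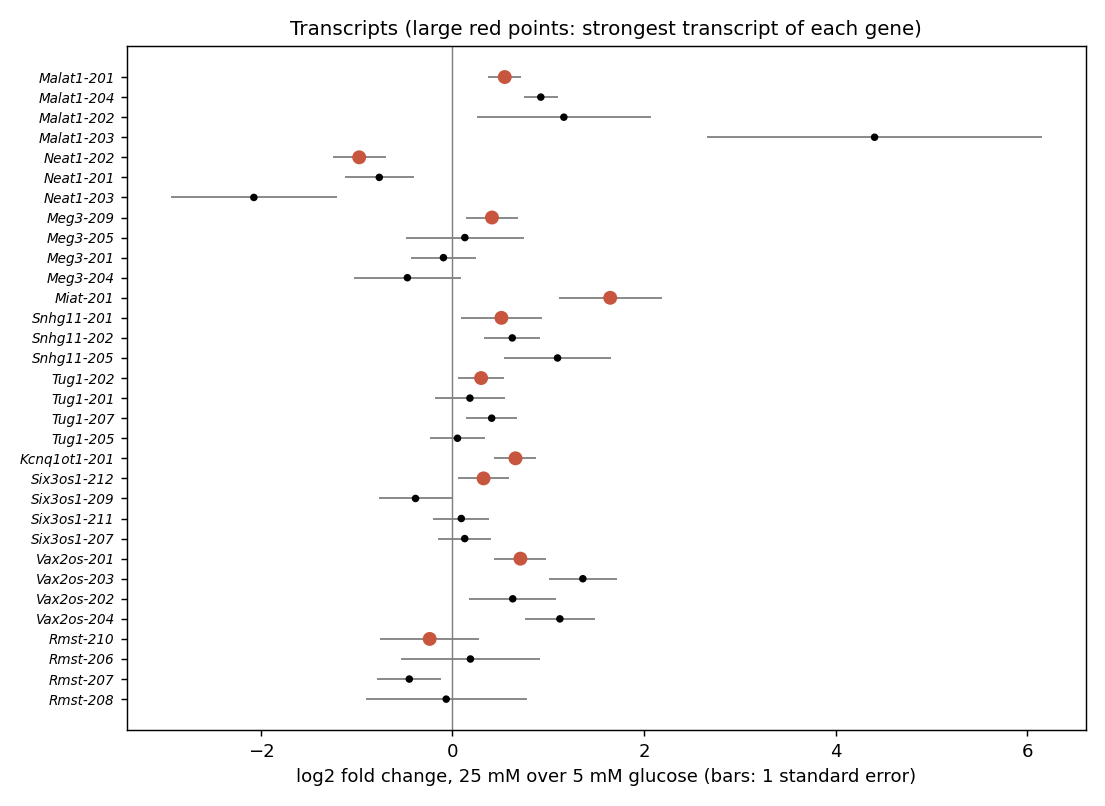
Log2 fold change at 25 mM over 5 mM glucose with 1 standard error (edgeR) for up to 4 tested transcripts of each gene, the strongest as large red points. Neat1-202 and Neat1-201 lie at -0.97 and -0.76, and the transcripts of Vax2os and Malat1 all lie above 0.

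The deposited gene counts of the members were not the sums of their deposited transcript counts, although both tables had the same total in each library. The ratio of the gene count to the transcript sum over the 12 libraries was 0.945 to 1.04 for Neat1 and 0.956 to 1.05 for Tug1, 0.796 to 1.57 for Malat1, 0.806 to 1.81 for Meg3 and 0.787 to 1.91 for Miat, and 1.76 to 2.54 for Snhg11. Over 9735 genes with at least 100 counts in every library in both tables, the highest ratio was 1.24 times the lowest at the median, and in 18.9% it was over 1.5 times. With summed transcript counts in place of gene counts the log2 fold change of Malat1 was 0.67 (FDR 0.119, edgeR).

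Partner genes of the members were taken from lists. Of 16 paraspeckle proteins, the partners of Neat1, 0 had an FDR under 0.05 (edgeR), with 1 higher and 1 lower at an unadjusted p under 0.05 and a median log2 fold change of -0.01. The higher one, Hnrnph3, a paraspeckle RNA-binding protein, stood at 106 ± 24.3 CPM at 5 mM and 173 ± 10.7 CPM at 25 mM (SD, n = 3, FDR 0.0754, edgeR). The lower one, Smarca4, had a log2 fold change of -0.96 ± 0.34 (SE, edgeR FDR 0.115), and its replicates overlapped between the concentrations. Sfpq and Nono, which bind Neat1 as a pair, had log2 fold changes of 0.46 ± 0.21 (SE) and -0.23 ± 0.15 (SE). Of 18 nuclear speckle and splicing factors, which share the speckle with Malat1, 0 passed (edgeR, 0 also at an unadjusted p under 0.05), with a median of 0.12. Clk1, a kinase of splicing factors, had a log2 fold change of 0.53 ± 0.25 (SE, edgeR FDR 0.198).

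Among 7 tested genes of the imprinted clusters of Meg3 and Kcnq1ot1, 0 passed (edgeR) and 3 were lower at an unadjusted p under 0.05. Kcnq1, a potassium channel whose exons overlap Kcnq1ot1 on the other strand, stood at 9.31 ± 3.42 CPM at 5 mM and 2.89 ± 2.24 CPM at 25 mM (SD, n = 3) with no overlap of the replicates, a log2 fold change of -1.68 ± 0.56 (SE, edgeR FDR 0.106) against 0.84 for Kcnq1ot1. Cdkn1c, a cell cycle inhibitor of the same cluster, had a log2 fold change of 0.15 ± 0.28 (SE). Dio3, which inactivates thyroid hormone and lies in the cluster of Meg3, stood at 2.29 ± 0.773 CPM and 1.02 ± 0.648 CPM, and Rian, a noncoding RNA beside Meg3, at 205 ± 52.7 CPM and 218 ± 31.0 CPM (SD, n = 3).

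Of 24 other named long noncoding RNAs, 1 rose at an FDR under 0.05 (edgeR), and 6 were higher and 3 lower at an unadjusted p under 0.05. The one that rose, Mir124a-1hg, the host of the neuronal microRNA miR-124, stood at 292 ± 47.5 CPM at 5 mM and 1025 ± 171 CPM at 25 mM (SD, n = 3), a log2 fold change of 1.81 (FDR 0.0228, edgeR). Otx2os1, which runs opposite to the photoreceptor gene Otx2, had a log2 fold change of 0.98 ± 0.23 (SE, edgeR FDR 0.0622). Mir22hg went the other way, with -0.89 ± 0.21 (SE, edgeR FDR 0.0623) and no overlap of the replicates. Of 12 tested small nucleolar RNA host genes, the kind to which Snhg11 belongs, 0 passed (edgeR, 0 at an unadjusted p under 0.05), with a median of 0.10 against 0.38 for Snhg11.

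Some genes lie on or beside the members, and since the sources used here do not say whether counting used the strand, their counts may share reads. Six3, the eye homeobox gene whose exons overlap Six3os1, stood at 23.2 ± 0.374 CPM at 5 mM and 16.5 ± 3.34 CPM at 25 mM (SD, n = 3), a log2 fold change of -0.49 ± 0.21 (SE, edgeR FDR 0.166) with no overlap of the replicates. Vax2, whose start lies within Vax2os on the other strand, stood at 1.53 ± 0.570 CPM and 1.30 ± 0.176 CPM (SD, n = 3). Morc2a, whose exons overlap Tug1 on the other strand, had a log2 fold change of -0.02 ± 0.15 (SE). Frmd8, the nearest protein-coding gene at higher coordinates of both Neat1 (4224 bases away) and Malat1, had a log2 fold change of -0.94 ± 0.29 (SE, edgeR FDR 0.0915). RefSeq promoter windows of GRCm38, which surround a transcription start, were found for 8 of the 10 members in 10 windows. The letters TAATCC, the core of sites of the photoreceptor factor CRX, were in 0 of the 10 on either strand and in 7.06% of all 32851 windows.

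Over the 12 libraries, which pair up as technical replicates of 6 biological replicates, the genes whose log2 CPM followed a member most closely were listed as a description. For Malat1 these were Gm45159 (Pearson r 0.94), 6230400D17Rik (0.93) and Malt1 (0.93). For Neat1 they were Pttg1ip (0.97), Plekhf1 (0.96) and Cxcl12 (0.96), and for Meg3 Matk (0.96), Tmem63c (0.95) and Inha (0.94). Between members the highest r was 0.79, for Miat and Snhg11, and the lowest -0.76, for Neat1 with Kcnq1ot1 and with Tug1.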

How the data were processed

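RNA-seq of mouse retinal explants was used, 3 biological replicates at 5 mM and 3 at 25 mM glucose with 2 technical replicates each. The authors deposited expected counts (estimated read counts that need not be whole) per gene and per transcript, not normalized between libraries; the counting tool and annotation are not given in the sources used here, and the submitters' processing notes name GRCm38. Of nonzero values, 100% of the gene table and 86.7% of the transcript table were not whole. Every deposited column was used. Per the labels, technical replicates 1 and 2 belong to batches 1 and 2. Symbols and positions came from GENCODE M21, which holds 48714 of 53707 gene identifiers.

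Technical replicates were summed and rounded (37944826 to 60098862 counts), and 21061 genes passed filterByExpr. These were compared across all genes in edgeR 4.0.16 (R 4.3.3) with TMM factors, the quasi-likelihood test as in edgeR 3 and Benjamini-Hochberg adjustment; the biological coefficient of variation was 0.297. Fits of 12 libraries for the technical replicate difference and for the batch difference of the glucose effect used the biological replicate as a block. The glucose fit of 12 libraries with a batch term had no such block and treated the libraries as independent samples. log2 CPM had a prior count of 2. Alternatives used limma 3.58.1 and DESeq2 1.42.0. Python 3.11.15, pandas 2.3.3, scipy 1.17.1 and matplotlib 3.10.9 were also used. The edgeR fit of 3 against 3 and the paired fit of second against first technical replicates were first tested on simulated data with known changes. The other fits were not. Depth sets the counting error only, and amplified reads are not independent molecules. Named were the 10 members, up to 4 transcripts of each, up to 4 genes of smallest p per list, flanking and overlapping genes, and the 3 genes most like Malat1, Neat1 and Meg3; Malat1-204, the Malat1 to Neat1 ratio, Nono, Rian and Vax2 were taken up outside this rule, after their values were seen. The members and lists were chosen with earlier results of these data known. Markers of cones, bipolar, amacrine and ganglion cells and mitochondrial mRNAs were listed as well. A flanking gene and a marker gene that the rule selects are not reported here.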

Additional observations from a re-analysis of the deposited data

Results flagged for a closer look

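Malat1 in the first technical replicate of 5 mM replicate 1 stood apart from the other 5 libraries at 5 mM glucose, with 8222 CPM against 4723 CPM in the nearest. Of 20 groups of 6 libraries examined, 1 held such a value, and chance gives about 1.

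The glucose difference of Meg3 differed between the batches by -1.64 on the log2 scale (FDR 0.173 in the edgeR interaction test), with the second technical replicate higher in each 5 mM pair and lower in each 25 mM pair. No cause was tested.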

How the results depend on the processing

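The glucose comparison called 0 members with TMM, RLE or library totals and with limma-voom, and 417, 407, 459 and 418 of 21061 genes. With a filter of at least 10 counts in every replicate it called 0, and 427 of 18581 genes. With summed transcript counts it called 0, and 334 of 20101 genes. In batch 2 alone 0 members and 0 of 18811 genes were called. DESeq2 called 5 (Malat1, Neat1, Miat, Kcnq1ot1, Vax2os), and 3489 of 21061 genes. With no filter on low counts 3 were called (Malat1, Neat1, Kcnq1ot1), and 1979 of 35141 genes. Batch 1 alone called 3 (Kcnq1ot1, Miat, Snhg11), and 3279 of 18969 genes. The fit of 12 libraries with a batch term called 3 (Malat1, Kcnq1ot1, Vax2os), and 2918 of 18725 genes. That fit counted technical replicates as independent samples, although each pair came from 1 biological replicate. Leaving out 1 replicate gave 0 to 5, the 5 without 5 mM replicate 1, where 5845 genes were called in place of 417. Among all genes 0 were called (edgeR) without 5 mM replicate 2 or 3 or 25 mM replicate 1 or 2. Under the stricter limits 0 members were called in every setting run, where the main fit called 0 genes and DESeq2 1387 of 21061. The count of the batch difference was 1 with no filter (Meg3), where 127 of 35131 genes were called, and otherwise 0. The count of transcripts was 6 with DESeq2, which called 4820 of all 64990. Shares that did not overlap were 1 in batch 1 alone and 0 to 4 with 1 replicate left out. Groups with fewer replicates stand apart more easily, and no share over all genes is given for these counts. The causes were not tested.

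The replicate numbers are shared by both concentrations, but same-numbered replicates did not deviate together (correlations -0.01, -0.45 and 0.28), so the numbers were not taken to pair the samples. With a replicate block 1 member was called, Kcnq1ot1 (FDR 0.0481, edgeR), and 990 genes, and the log2 fold change of Rmst was 0.0241.

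Malat1, Neat1, Tug1, Kcnq1ot1 and Vax2os kept their direction of the glucose difference in all 17 settings, with log2 fold changes of 0.67 to 1.19, -1.22 to -0.71, 0.20 to 0.64, 0.53 to 1.18 and 0.76 to 1.07. In batch 2 alone it was -0.74 for Meg3, -0.18 for Miat, -0.66 for Snhg11 and -0.0884 for Six3os1. For Rmst it was 0.0322 with library totals, 0.0124 with limma-voom and 0.50 in batch 1 alone. With 1 replicate left out it ran from -0.12 to 0.25 for Meg3, -0.12 to 0.12 for Six3os1 and -0.35 to 0.49 for Rmst. The second over first difference ran from -0.0567 to 0.48 for Neat1, -0.40 to 0.10 for Meg3, -0.26 to 0.0257 for Kcnq1ot1, -0.0015 to 0.24 for Six3os1, -0.14 to 0.20 for Vax2os and -0.38 to 0.0006 for Rmst, and for Vax2os was 0.0154 with library totals and 0.0141 with no filter. The batch difference ran from -0.19 to 0.27 for Malat1, -0.31 to 0.94 for Neat1, -0.10 to 0.41 for Tug1 and -0.61 to 0.45 for Vax2os, and for Malat1 was -0.0766 with library totals. The median of the annotated long noncoding RNAs, computed in each setting after the data were seen, lay between 0.36 and 0.71.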

Other observations

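Markers of the other neurons were measured in the same comparison. Of 8 cone markers, 1 rose at an FDR under 0.05 (edgeR), Opn1mw, the green cone opsin, with a log2 fold change of 1.75 (FDR 0.0420, edgeR). Opn1sw, the short-wavelength opsin, had -1.01 (standard error 0.26, FDR 0.0704, edgeR). Of 10 bipolar markers 0 passed (edgeR), with 2 higher and 2 lower at an unadjusted p under 0.05. Of 9 tested amacrine markers 0 passed (edgeR), with 1 higher and 3 lower at an unadjusted p under 0.05, Gad1 and Gad2, which make the transmitter GABA, having log2 fold changes of -0.92 and -0.96. Of 10 ganglion cell markers 0 passed (edgeR, 1 lower at an unadjusted p under 0.05, Rbpms, with -1.68). All 13 mitochondrial mRNAs lay above 0 on the log2 scale (median 0.29), and 0 of 13 passed (edgeR, 0 at an unadjusted p under 0.05).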
